A study of Mus musculus with 9 samples.

Results

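The 10 genes described here encode cytoplasmic actins and abundant proteins that build, cut or store actin filaments and monomers: Actb and Actg1, Pfn1, Cfl1, Tmsb4x, Tmsb10, Arpc1b, Arpc2, Arpc3 and Coro1a. They were taken by symbol from the 22322 genes of the expression table, and each symbol matched 1 gene. The libraries were made from long-term haematopoietic stem cells (LT-HSCs), the bone marrow cells that sustain all blood lineages, of C57BL/6 mice aged 6 to 8 weeks. The sort took cells that were c-Kit+, Sca-1+ and CD150+ but Lin-, CD48- and CD135-, and 500 to 800 cells of 1 mouse gave 1 library. The 9 libraries fell into 3 groups of 3: wild type (WT), Cxcl10-/-, without the gene of the chemokine CXCL10, and Cxcr3-/-, without the gene of its receptor. The labels give the knockouts by the name of the gene alone, and how the alleles were made is not given in the sources used here.

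Actin cycles between monomers and filaments. Profilin loads monomers onto growing filament ends, thymosins hold monomers in reserve, cofilin severs old filaments, and the Arp2/3 complex starts new branches on existing ones. In blood stem cells this cycle drives the shape changes of migration, homing and adhesion to the bone marrow niche. CXCR3 is the receptor of CXCL10 and related chemokines, and in T cells its activation leads to actin remodelling and directed movement.

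The libraries held between 12098498 and 17904629 expected counts, and the members had between 826 and 68519 counts in a library. Cxcl10 had 0 counts in each Cxcl10-/- library, 3 to 84 in WT and 112 to 553 in Cxcr3-/-. Cxcr3 had 8 counts in WT replicate 3 and 0 in the other libraries, so its level could not check the Cxcr3-/- labels. The 14 LT-HSC identity genes, such as Kit, Hlf and Mecom, were all tested, and summed to 832 to 949 FPKM (fragments scaled to transcript length and library size) in WT, 829 to 964 in Cxcl10-/- and 843 to 895 in Cxcr3-/-. Ly6a (Sca-1) made up the largest part of that sum, 194 to 379 FPKM. In Cxcl10-/- against WT, Tie1 was called higher and Slamf1, which encodes the sort marker CD150, lower (0.69, 0.71 and 4.12 FPKM against 6.87, 7.40 and 5.23). Kit was not called there, but its Cxcl10-/- libraries, at 81.4, 72.3 and 45.8 FPKM, were below those of WT (98.1, 109.8 and 106.2). Those of Hlf and Mecom overlapped WT. Between the knockouts, Kit and Slamf1 were called higher and Hoxb5 lower in Cxcr3-/- than in Cxcl10-/-. Libraries of the Cxcl10-/- group stood apart in several measures. Mitochondrial transcripts took 3.89 ± 0.287% (SD, n = 3) of their counts, against 12.9 ± 0.258% in WT and 10.8 ± 0.479% in Cxcr3-/-. The 12 endothelial markers summed to 533 to 751 FPKM there, against 109 to 150 in WT and 104 to 160 in Cxcr3-/-, and 8 of the 12 were higher than in WT (limma, adjusted p under 0.05). Fabp4 made up the largest part of the Cxcl10-/- sums, at 287, 455 and 341 FPKM against 5.67, 18.2 and 5.92 in WT. Emcn, Esam and Pecam1 overlapped WT. Immediate-early genes summed to 415 to 807 FPKM, against 84.2 to 95.9 in WT, with 12 of 14 higher.

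Actb and Actg1 encode the cytoplasmic β- and γ-actins, which differ in a few residues at the start of the protein. Their coding sequences had 1128 bases each and shared 1000 of them (88.7%), which bears on how reads can be divided between them. The first 90 bases, from GENCODE M21 (GRCm38), are shown with the 16 differing bases in capitals.
Actb: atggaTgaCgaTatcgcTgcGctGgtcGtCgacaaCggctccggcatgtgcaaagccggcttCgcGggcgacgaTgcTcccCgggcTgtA
Actg1: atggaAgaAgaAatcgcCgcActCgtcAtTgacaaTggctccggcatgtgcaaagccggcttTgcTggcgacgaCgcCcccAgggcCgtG
The thymosins Tmsb4x and Tmsb10 were less alike. Over the 135 bases of the Tmsb10 coding sequence, set without gaps beside bases 19 to 153 of the Tmsb4x-202 coding sequence, 95 were shared (70.4%). The 40 differing bases are in capitals.
Tmsb4x: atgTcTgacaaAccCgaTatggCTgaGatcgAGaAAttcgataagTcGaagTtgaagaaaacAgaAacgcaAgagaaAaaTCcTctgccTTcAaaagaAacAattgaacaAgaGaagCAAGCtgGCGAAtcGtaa
Tmsb10: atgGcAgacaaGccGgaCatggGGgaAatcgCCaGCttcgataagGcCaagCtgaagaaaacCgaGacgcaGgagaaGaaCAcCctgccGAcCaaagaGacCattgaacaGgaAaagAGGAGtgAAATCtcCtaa

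Expression differed widely among the members. In WT, Tmsb4x stood at 4416 ± 177 FPKM (mean ± SD, n = 3), rank 12 among all genes, and Coro1a, the lowest member, at 66.9 ± 8.21 FPKM. Between them came Pfn1 at 782 ± 62.2, Actb at 761 ± 37.3, Tmsb10 at 549 ± 54.7, Actg1 at 517 ± 12.9, Arpc2 at 438 ± 54.6, Cfl1 at 212 ± 17.1, Arpc3 at 176 ± 24.5 and Arpc1b at 111 ± 11.3 FPKM. In this order the WT libraries of neighbours overlapped for Pfn1 and Actb, for Tmsb10 and Actg1, and for Cfl1 and Arpc3. Tmsb4x remained first in both knockouts, whereas Actb stood above Pfn1 with no overlap in Cxcl10-/- and above Actg1 with no overlap in Cxcr3-/-. Together the 10 genes took 1.02 ± 0.0259% of all FPKM in WT, 1.30 ± 0.0291% in Cxcl10-/- and 1.03 ± 0.0686% in Cxcr3-/-. Part of that difference lay in the total: with mitochondrial genes left out of it the shares were 1.25%, 1.37% and 1.23%.

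**Figure D1:**
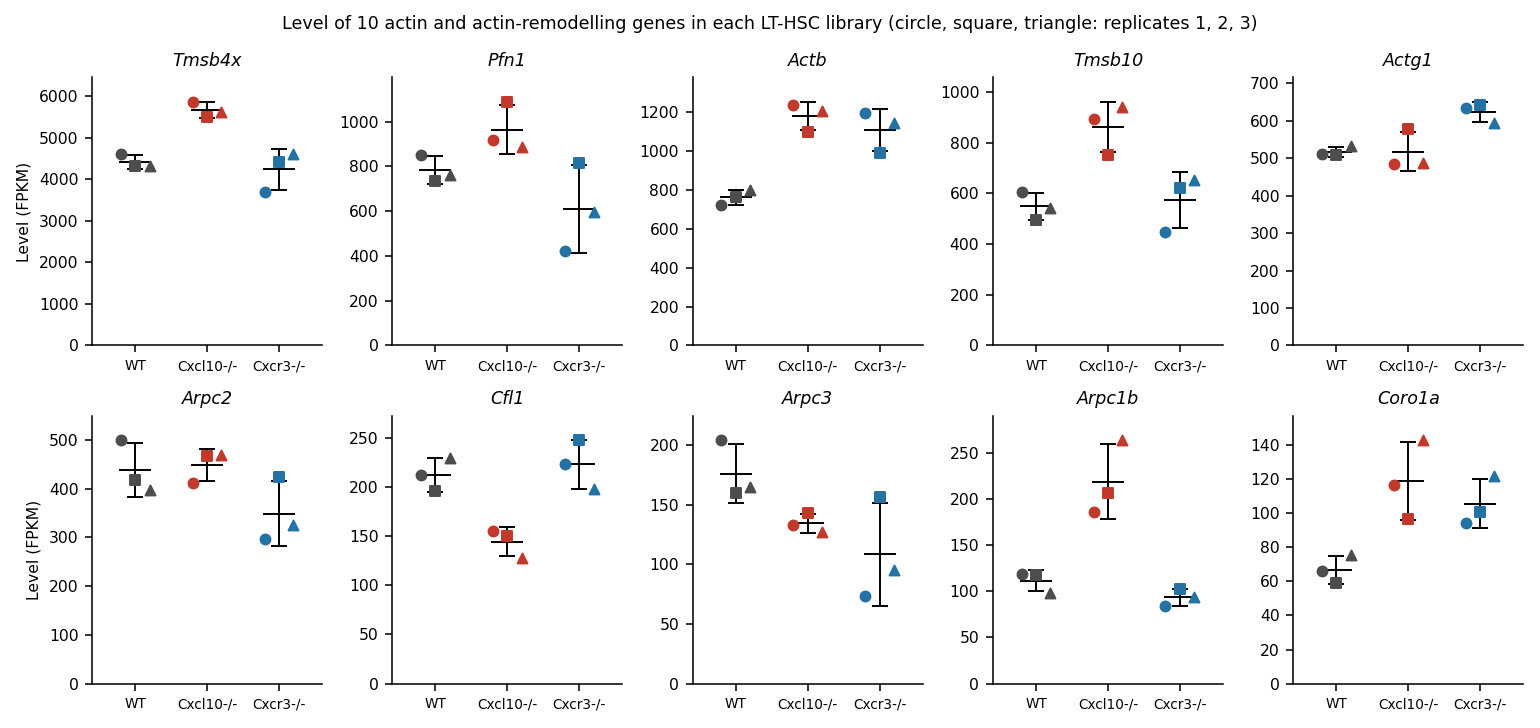
Level of each gene in FPKM (y axis, linear and from 0, scaled per gene) in the 9 libraries by genotype (x axis). Points are libraries, with circles, squares and triangles for replicates 1, 2 and 3, and the bars give mean and SD. The 3 Cxcl10-/- libraries sit above all others for Tmsb4x, Pfn1, Tmsb10 and Arpc1b and below all others for Cfl1 only, and Actb lies above WT in every knockout library.

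Genotypes were compared with limma on log2(FPKM + 1) over the 10866 genes that averaged 1 FPKM or more, at an adjusted p under 0.05. All 10 members were tested. They were picked as abundant genes, whereas the tested genes reach down to a mean of 1 FPKM. The shares over all genes given below therefore cover unlike levels. Between Cxcl10-/- and WT, 6 of the 10 passed, against 9.28% of all tested genes. Of these, 5 were higher (6.10% of all genes) and 1 was lower (3.18% of all genes). The median log2 difference of the members was 0.33, against 0.08 over all tested genes. Groups did not overlap for 8 members, a pattern that 30.3% of all genes had. Between Cxcr3-/- and WT none passed in limma, as for all genes (0.0%). In that comparison 4 members and 834 genes had an unadjusted p under 0.05, edgeR called 0 members and 0.0% of genes, and DESeq2 called 1 member and 2.07% of the genes to which it gave an adjusted p. The groups did not overlap for 4 members and for 19.8% of all genes, and the median of the members was -0.01, against 0.06. Between Cxcr3-/- and Cxcl10-/-, 5 of 10 passed, against 12.5% of all genes: 1 was higher (4.69% of all genes) and 4 were lower (7.81%). Their median was -0.38, against -0.02 over all genes, and 6 members did not overlap, against 29.1% of genes. These 3 comparisons share groups with one another and are not independent.

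The calls in the Cxcl10-/- libraries varied with the method. On the expected counts edgeR called 4 members (7.22% of all genes) and DESeq2 5 (13.9%) against WT, and 3 (10.5%) and 5 (16.8%) against Cxcr3-/-. After a correction for GC content and transcript length, 2 members passed against WT (5.67% of all genes) and 3 in the comparison of the knockouts (9.18%). Those against WT were Tmsb4x and Cfl1, and those between the knockouts Arpc1b, Cfl1 and Actg1. Of these, Actg1 had not passed without the correction. With mitochondrial genes left out before scaling, the median of all genes moved by -0.19 in the comparison with WT, and by 0.14 in that of the knockouts. The split of all called genes then turned from 663 higher and 345 lower to 331 and 568 against WT, and from 510 and 849 to 758 and 552 between the knockouts. The part of the mitochondrial share, the endothelial markers and the immediate-early genes in the members' differences was not tested. In bulk libraries fewer cells of a type and less RNA per cell cannot be told apart.

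**Figure D2:**
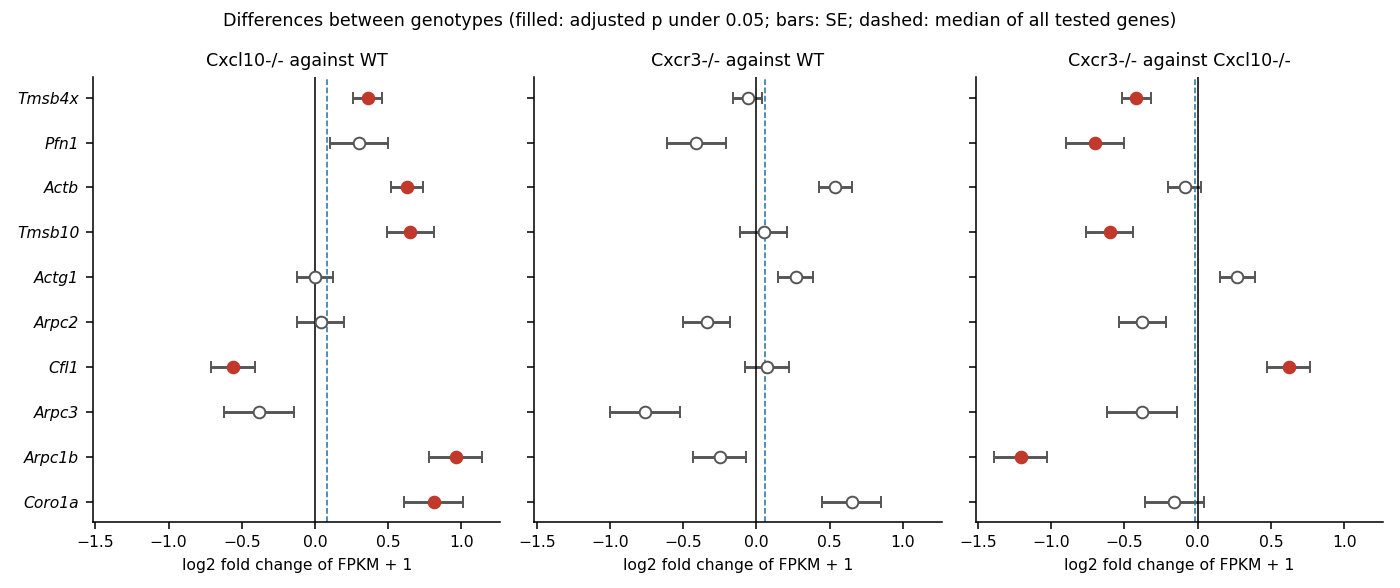
Log2 fold change of FPKM + 1 (x axis) of each gene (y axis) in the 3 comparisons, with its standard error. Filled points passed an adjusted p under 0.05 in limma, and the dashed line is the median of all tested genes. Filled points number 6, 0 and 5 from left to right.

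Actb (ENSMUSG00000029580, chr5:142903115-142906754, minus strand) was called higher in Cxcl10-/- than in WT, and its Cxcr3-/- libraries also lay above those of WT. Gene positions are those of GENCODE M21 (GRCm38). Actb stood at 723, 764 and 797 FPKM in the WT libraries, 1235, 1096 and 1208 in Cxcl10-/-, and 1194, 988 and 1144 in Cxcr3-/-. Every knockout library was above every WT library, and the knockouts overlapped each other. The log2 fold change against WT was 0.63 ± 0.11 (SE) in Cxcl10-/- (limma, adjusted p = 0.00706). In Cxcr3-/- it was 0.54 ± 0.11, with an adjusted p of 0.441 in limma, where no gene passed, 0.552 in edgeR and 0.0160 in DESeq2. Both knockouts are set against the same WT libraries. The Cxcl10-/- difference kept its call without any 1 of the 9 libraries and missed it after the GC and length correction, at 0.44 (adjusted p = 0.0564). Between the knockouts the difference was -0.09 ± 0.11 (limma, adjusted p = 0.643), and it turned to 0.08 with mitochondrial genes left out.

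Actg1 (ENSMUSG00000062825, chr11:120345690-120348542, minus strand), the other cytoplasmic actin, was called in none of the 3 comparisons. Its levels were 511, 508.5 and 532 FPKM in WT, 486, 577 and 488 in Cxcl10-/-, and 635, 643 and 593 in Cxcr3-/-. The first 2 groups overlapped, and the Cxcr3-/- libraries were above both. Against WT the log2 difference was -0.00 ± 0.12 in Cxcl10-/- (limma, adjusted p = 0.984) and 0.27 ± 0.12 in Cxcr3-/- (adjusted p = 0.645). Between the knockouts it was 0.27 ± 0.12 (limma, adjusted p = 0.158), which passed with mitochondrial genes left out, after quantile normalization and after the GC and length correction (0.51, adjusted p = 0.0169).

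A ratio within a library is free of the scaling between libraries. The Actg1 to Actb ratio was 0.680 ± 0.0231 (SD, n = 3) in WT, 0.441 ± 0.0743 in Cxcl10-/- and 0.567 ± 0.0729 in Cxcr3-/-. All WT libraries were above all libraries of either knockout, and the knockouts overlapped. The log2 difference from WT was -0.64 in Cxcl10-/- and -0.27 in Cxcr3-/-, each with a two-sided exact permutation p of 0.1, the smallest that 3 against 3 libraries allow, and 0.2 adjusted over the 6 tests of 2 ratios. The expected counts of Actb held fractions in all libraries and those of Actg1 in most. How reads that match both genes were counted is not given in the sources used here, and its part in the ratio was not tested.

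**Figure D3:**
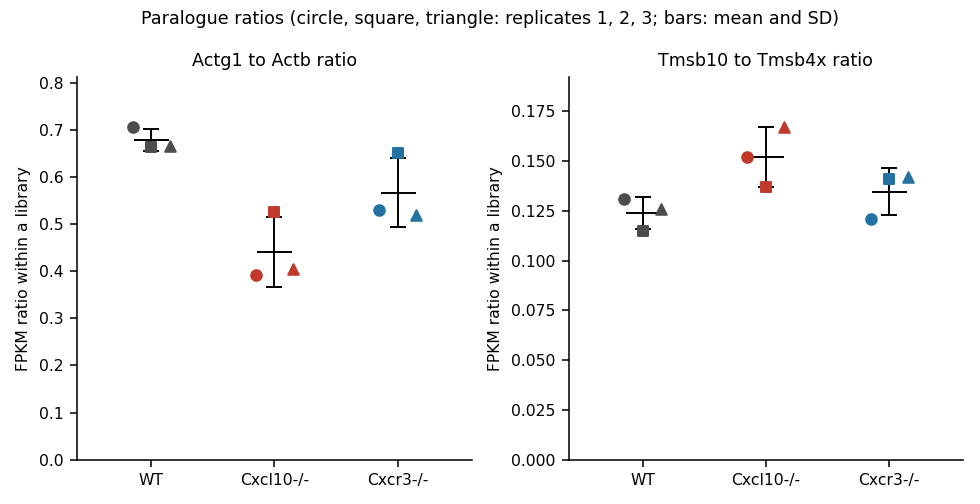
FPKM ratio within each library (y axis, from 0) of Actg1 to Actb and of Tmsb10 to Tmsb4x, by genotype (x axis), with mean and SD. The Actg1 to Actb ratio is highest in the 3 WT libraries, and the Tmsb10 to Tmsb4x ratio is higher in the 3 Cxcl10-/- libraries than in WT.

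Tmsb4x (ENSMUSG00000049775, chrX:167207093-167209315, minus strand) encodes thymosin β4, the main holder of actin monomers in blood cells. It stood at 4620.1, 4313 and 4314 FPKM in WT, 5868, 5501 and 5628 in Cxcl10-/-, and 3692, 4412 and 4616 in Cxcr3-/-. All 3 Cxcl10-/- libraries were above the rest, and WT and Cxcr3-/- overlapped. Tmsb4x was 0.36 ± 0.10 (log2, SE) higher in Cxcl10-/- than in WT (limma, adjusted p = 0.0393) and 0.42 lower in Cxcr3-/- than in Cxcl10-/- (log2 fold change -0.42 ± 0.10, adjusted p = 0.0159). The difference from WT was not called by edgeR (0.28, adjusted p = 0.153) or DESeq2 (0.27, adjusted p = 0.175), nor with mitochondrial genes left out (0.14, adjusted p = 0.361). It also missed the threshold without any 1 of the WT or Cxcl10-/- libraries, at adjusted p between 0.0516 and 0.145. That between the knockouts held without any 1 library, and it missed the threshold after the GC and length correction (-0.18, adjusted p = 0.234).

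Tmsb10 (ENSMUSG00000079523, chr6:72957347-72958748, minus strand) encodes the related thymosin β10. It had 606, 497 and 543 FPKM in WT, 894, 752 and 941 in Cxcl10-/-, and 448, 621 and 655 in Cxcr3-/-. Again the Cxcl10-/- libraries were the highest, and the other groups overlapped. The log2 fold change was 0.65 ± 0.16 in Cxcl10-/- against WT (limma, adjusted p = 0.0279) and -0.60 ± 0.16 in Cxcr3-/- against Cxcl10-/- (adjusted p = 0.0324). After the GC and length correction they were 0.16 (adjusted p = 0.508) and -0.07 (adjusted p = 0.764), and Tmsb10 had the highest GC content of the members, 58.7%. The first call was lost without WT replicate 1, 2 or 3 or Cxcl10-/- replicate 1 or 3 (adjusted p between 0.0582 and 0.121), the second without WT replicate 3, Cxcl10-/- replicate 1 or 3 or Cxcr3-/- replicate 1 (0.0541 to 0.104). The ratio of Tmsb10 to Tmsb4x was 0.124 ± 0.00814 in WT, 0.152 ± 0.0153 in Cxcl10-/- and 0.135 ± 0.0114 in Cxcr3-/-. Its Cxcl10-/- values did not overlap those of WT (log2 difference 0.29, exact permutation p = 0.1, 0.2 adjusted over 6 tests), whereas Cxcr3-/- overlapped both. The ratio itself was not corrected for GC content and length. With that correction, Cxcl10-/- exceeded WT by less for Tmsb10 (0.16) than for Tmsb4x (0.36). Before it the order was the reverse (0.65 against 0.36), so the direction of the ratio difference depended on the correction.

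Pfn1 (ENSMUSG00000018293, chr11:70651850-70654644, minus strand) encodes profilin 1. It stood at 852, 733 and 762 FPKM in WT, 916, 1088 and 886 in Cxcl10-/-, and 421, 814 and 594 in Cxcr3-/-. The Cxcl10-/- libraries were above the others, and the Cxcr3-/- libraries spread most widely. Against WT the log2 difference was 0.30 ± 0.20 in Cxcl10-/- (limma, adjusted p = 0.375; -0.09 after the GC and length correction) and -0.41 ± 0.20 in Cxcr3-/- (adjusted p = 0.679). Pfn1 was lower in Cxcr3-/- than in Cxcl10-/- (-0.70 ± 0.20, adjusted p = 0.0388). This call held without Cxcr3-/- replicate 2 (-0.94, adjusted p = 0.00692). It was lost without each of the other 8 libraries in turn (adjusted p between 0.0534 and 0.118), in edgeR (0.0786) and after the GC and length correction (-0.22, adjusted p = 0.413). Without Cxcr3-/- replicate 1, the lowest library, the value was -0.46.

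Cfl1 (ENSMUSG00000056201, chr19:5490455-5495201, plus strand), which encodes the filament-severing protein cofilin 1, was the only one of the 10 members called lower in Cxcl10-/- than in WT. It had 212, 196 and 229.8 FPKM in WT, 156, 150.0 and 127 in Cxcl10-/-, and 224, 247 and 198 in Cxcr3-/-. Every Cxcl10-/- library was below the rest, and WT and Cxcr3-/- overlapped. The log2 fold change was -0.56 ± 0.15 against WT (limma, adjusted p = 0.0436), and Cfl1 was 0.62 ± 0.15 higher in Cxcr3-/- than in Cxcl10-/- (adjusted p = 0.0232). Both calls held in edgeR, in DESeq2 and after the GC and length correction (-0.76 and 0.78). The first was lost in 7 of 9 fits that left out 1 library, all but those without Cxcl10-/- replicate 1 or Cxcr3-/- replicate 2 (adjusted p between 0.0516 and 0.159). The second was lost without Cxcl10-/- replicate 3 or Cxcr3-/- replicate 1 or 2 (0.0540 to 0.0702). Snx32, on the opposite strand, shares 468 exonic bases with Cfl1 and was at 1.39 ± 0.902 FPKM in WT, 3.18 ± 2.93 in Cxcl10-/- and 1.00 ± 0.232 in Cxcr3-/-.

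Arpc1b alone was called among the 3 Arp2/3 subunits of the member list. Arpc1b (ENSMUSG00000029622, chr5:145114215-145130705, plus strand) is the subunit isoform that prevails in blood cells. It had 119, 117 and 98.3 FPKM in WT, 186, 207 and 264 in Cxcl10-/-, and 83.7, 103 and 93.35 in Cxcr3-/-. No library of another group reached the lowest Cxcl10-/- library. Its log2 fold change was 0.96 ± 0.18 against WT (limma, adjusted p = 0.00839), a ratio of means of 1.96, and -1.21 ± 0.18 in Cxcr3-/- against Cxcl10-/- (adjusted p = 0.00193). The call between the knockouts held in all 22 alternative settings (-1.32 to -0.86). The call against WT held in 20, including every fit without 1 library, and missed the threshold after the GC and length correction (0.71, adjusted p = 0.0592). Pdap1, on the opposite strand, shares 931 exonic bases with Arpc1b and stood at 10.9 ± 1.76 FPKM in WT, 24.8 ± 2.28 in Cxcl10-/- and 13.1 ± 4.37 in Cxcr3-/-. Whether the counting used strand is not given in the sources used here, so reads of the shared bases cannot be assigned to either gene.

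Arpc2 (ENSMUSG00000006304, chr1:74236084-74268209, plus strand) encodes a core subunit of the complex. It had 499.8, 418 and 396 FPKM in WT, 411, 466 and 469 in Cxcl10-/-, and 296, 423 and 326 in Cxcr3-/-. All 3 groups overlapped. Its log2 difference from WT was 0.04 ± 0.16 in Cxcl10-/- (limma, adjusted p = 0.906; -0.05 in edgeR) and -0.34 ± 0.16 in Cxcr3-/- (adjusted p = 0.666), and no setting called it. Arpc3 (ENSMUSG00000029465, chr5:122391878-122414184, plus strand) encodes another subunit. It had 204, 159 and 164 FPKM in WT, 133, 143 and 127 in Cxcl10-/-, and 73.35, 156 and 95.1 in Cxcr3-/-. Both knockouts lay below WT and overlapped each other. Its log2 differences from WT, -0.38 ± 0.24 in Cxcl10-/- (adjusted p = 0.346) and -0.76 ± 0.24 in Cxcr3-/- (adjusted p = 0.481), did not pass in limma or in any of the 22 alternative settings. Cxcr3-/- replicate 1 was the lowest of the 9 libraries for 6 members, Pfn1, Tmsb4x, Tmsb10, Arpc1b, Arpc2 and Arpc3, and for 11.3% of all tested genes.

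The other subunits of the complex gave no calls in limma, 0 of 6 tested in each comparison. An unadjusted p under 0.05 was reached by 3 in Cxcl10-/- against WT, 1 in Cxcr3-/- against WT and 2 between the knockouts. Of all 10866 tested genes, 2825, 834 and 3026 reached it in these comparisons. edgeR called 0 in each, and DESeq2 called 2 in the first (13.9% of all genes), Arpc4 and Actr3, and 0 in the others. Arpc4 had the largest difference of these between Cxcl10-/- and WT, with 77.7, 62.15 and 84.5 FPKM in WT, 166, 93.2 and 161 in Cxcl10-/-, and 69.95, 94.9 and 112 in Cxcr3-/-. The Cxcl10-/- libraries were above those of WT (0.86 ± 0.25, adjusted p = 0.0556), and they overlapped those of Cxcr3-/-. Arpc1a, the paralogue of Arpc1b, was at 46.7 ± 6.21 FPKM in WT and 68.6 ± 11.1 in Cxcl10-/- (0.54 ± 0.21, adjusted p = 0.129). Actr3, the actin-related subunit Arp3, was at 103 ± 8.06 and 78.2 ± 8.55 FPKM (-0.40 ± 0.18, adjusted p = 0.180), and Actr2, Arp2, at 103 ± 12.6 and 85.2 ± 9.22 (-0.27 ± 0.17, adjusted p = 0.359). Arpc5 (-0.00 ± 0.18) and Arpc5l (0.12 ± 0.21) did not pass in that comparison, and Actr3b was below the level tested.

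Coro1a (ENSMUSG00000030707, chr7:126699773-126707787, minus strand) encodes the coronin of white blood cells, which binds filaments and the Arp2/3 complex. It had 66.4, 59.0 and 75.4 FPKM in WT, 117, 96.9 and 143 in Cxcl10-/-, and 94.1, 101 and 122 in Cxcr3-/-. Like Actb, it was higher in every knockout library than in every WT library, and the knockouts overlapped. The log2 fold change was 0.81 ± 0.20 in Cxcl10-/- (limma, adjusted p = 0.0257) and 0.65 ± 0.20 in Cxcr3-/- (adjusted p = 0.466), against the same WT libraries. Between the knockouts it was -0.16 ± 0.20 (adjusted p = 0.637; 0.18 after the GC and length correction). The Cxcl10-/- call was lost without WT replicate 1, 2 or 3 or Cxcl10-/- replicate 3 (adjusted p between 0.0571 and 0.116), with mitochondrial genes left out (0.59, adjusted p = 0.0803) and after the GC and length correction (0.34, adjusted p = 0.344). Bola2, which shares 26 exonic bases on the opposite strand, was at 73.2 ± 4.72 FPKM in WT, 172 ± 24.5 in Cxcl10-/- and 87.6 ± 6.26 in Cxcr3-/-.

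**Figure D4:**
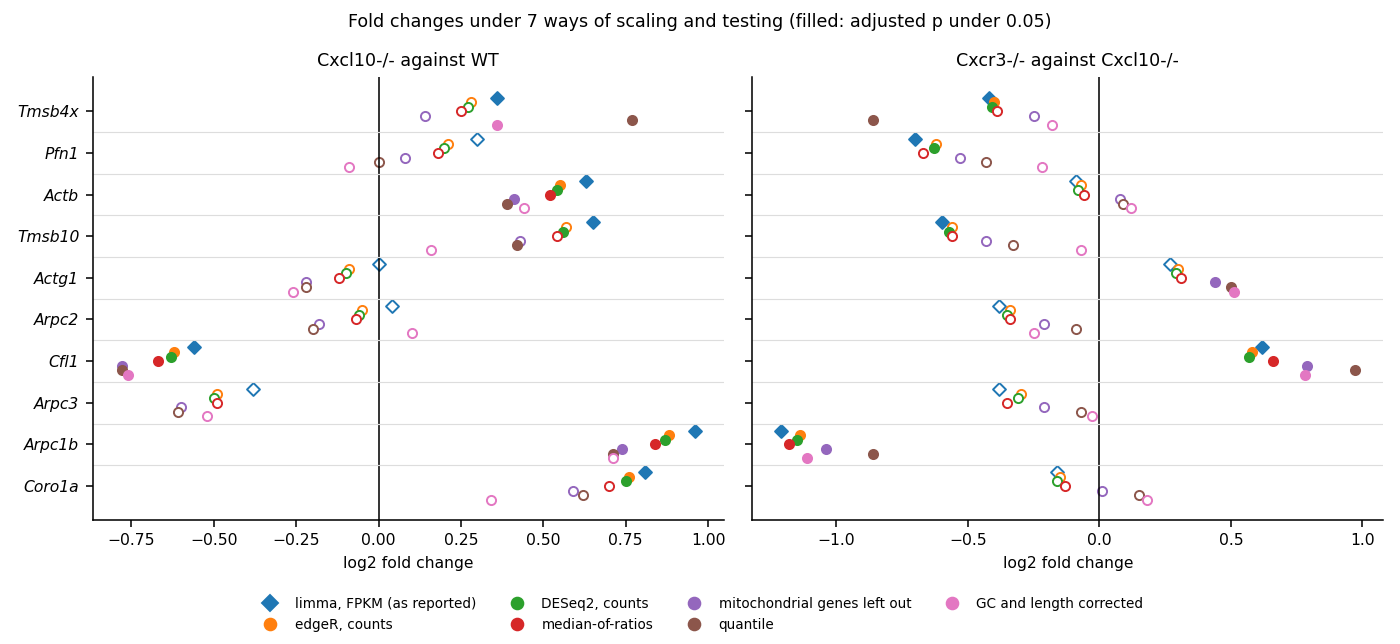
Log2 fold change (x axis) of each gene (y axis) under 7 ways of scaling and testing, for Cxcl10-/- against WT and Cxcr3-/- against Cxcl10-/-. Filled symbols passed an adjusted p under 0.05. Every member called in limma in a comparison stays on 1 side of 0 under all 7 there. In Cxcl10-/- against WT, the GC and length correction moves Tmsb10, Coro1a, Arpc1b and Actb towards 0 and Cfl1 away from it.

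Promoters are shown for 3 members: Actg1, the only one of the 9 matched members with a CArG box, and Arpc1b and Cfl1, which moved in opposite directions in Cxcl10-/-. The CArG box is bound by the serum response factor SRF, which drives many actin genes when its cofactors MRTF-A and MRTF-B are released from actin monomers. The RefSeq table (GRCm38.p6) held 12 start sites of 9 members; Actb had no entry. The 250 bases before each start site were searched on both strands for the CArG box, the TATA motif TATAAA, the CCAAT motif and the GC-box motif GGGCGG, with overlapping matches counted separately. Counted per start site, the CArG box was in 1 of the 12 and 1.47% of all 32851 promoters, TATAAA in 0 and 12.4%, CCAAT in 2 and 33.8%, and GGGCGG in 9, of 7 members, and 32.7%. Matches are in capitals.
Actg1, chr11:120348496-120348745, minus strand: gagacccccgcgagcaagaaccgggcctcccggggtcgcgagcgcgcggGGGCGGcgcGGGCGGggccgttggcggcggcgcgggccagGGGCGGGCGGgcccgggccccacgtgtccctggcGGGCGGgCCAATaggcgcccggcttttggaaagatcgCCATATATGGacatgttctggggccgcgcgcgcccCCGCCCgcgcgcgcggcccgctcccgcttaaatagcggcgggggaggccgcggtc
Arpc1b, chr5:145114006-145114255, plus strand: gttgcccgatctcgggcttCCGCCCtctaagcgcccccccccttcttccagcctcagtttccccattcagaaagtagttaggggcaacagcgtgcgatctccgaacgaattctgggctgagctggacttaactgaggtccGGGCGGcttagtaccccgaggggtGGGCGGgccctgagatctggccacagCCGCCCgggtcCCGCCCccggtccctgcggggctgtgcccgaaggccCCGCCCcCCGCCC
Cfl1, chr19:5490205-5490454, plus strand: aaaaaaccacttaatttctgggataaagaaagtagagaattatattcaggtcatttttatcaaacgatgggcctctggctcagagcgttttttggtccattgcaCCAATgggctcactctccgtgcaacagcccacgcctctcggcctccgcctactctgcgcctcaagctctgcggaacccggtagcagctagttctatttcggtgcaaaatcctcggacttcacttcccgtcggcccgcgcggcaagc
Actg1 had 8 matches, among them the CArG box and 1 CCAAT. Arpc1b had 7, all GGGCGG or its reverse complement, and Cfl1 had 1, a CCAAT. A match is a run of letters and was not tested as a binding site.

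SRF and its cofactors gave no calls, 0 of 5 tested in each comparison in limma, edgeR or DESeq2, with 0 at an unadjusted p under 0.05. Srf was at 1.81 ± 0.449 FPKM in WT, 2.67 ± 3.47 in Cxcl10-/- and 3.37 ± 0.657 in Cxcr3-/-. Values in Cxcl10-/-, 6.63, 1.19 and 0.19 FPKM, spread over the values of all others. Elk4, an SRF partner, was at 44.5 ± 4.75 FPKM in WT and 60.2 ± 5.54 in Cxcl10-/- (0.43 ± 0.21, adjusted p = 0.226). Mrtfa (-0.20 ± 0.39), Mrtfb (0.02 ± 0.40) and Elk3 (-0.43 ± 0.28) did not pass in that comparison, and Elk1 was below the level tested.

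Of 139 further genes of the actin cytoskeleton, 138 were in the table and 118 were tested. In Cxcl10-/- against WT, 7 passed (5.93% of those tested, against 9.28% of all genes), 5 higher and 2 lower, with a median of 0.11. Myl6, an essential light chain of non-muscle myosin, rose from 1329, 1328 and 1341 FPKM to 1895, 2147 and 2362 (0.67 ± 0.11, adjusted p = 0.00458). Its 3 Cxcl10-/- libraries were above the WT libraries. The regulatory light chain Myl12a (0.63 ± 0.15, adjusted p = 0.0253), the capping protein Capg (1.05 ± 0.22, adjusted p = 0.0150), the coronin Coro1c (1.12 ± 0.31, adjusted p = 0.0434) and the Rac exchange factor Vav1 (1.37 ± 0.29, adjusted p = 0.0150) were also higher. Of these, Coro1c kept its call in 3 of 9 fits without 1 library (adjusted p up to 0.145; 0.0558 in edgeR) and Myl12a in 5 (up to 0.118; 0.0806 in edgeR). The capping subunit Capza2 fell from 272 ± 36.4 to 150 ± 11.6 FPKM (-0.85 ± 0.17, adjusted p = 0.0102), and Rhoh, a small GTPase of blood cells, fell by 1.26 ± 0.27 (adjusted p = 0.0158). After the GC and length correction, which left 5.67% of all genes called, 3 of the 118 passed: Vav1, Rhoh and Twf1. Of 21 nucleation-promoting factors and formins and 23 crosslinkers and adhesion linkers, 0 passed in limma or edgeR. An unadjusted p under 0.05 was reached by 6 and 3 of them, and by 2825 of all 10866 tested genes. DESeq2 called 1 of each, Wipf1 and Pls3. DESeq2 called 18 of the 118 in all (13.9% of all genes) and edgeR 5 (7.22% of all genes).

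In Cxcr3-/- against WT none of the 118 passed in limma (median 0.06). An unadjusted p under 0.05 was reached there by 10 of them and by 834 of all 10866 tested genes. edgeR called 0 and DESeq2, with 2.07% of the genes it adjusted, called 3: Arhgdib, Capza2 and Myl12b. In Cxcr3-/- against Cxcl10-/-, 11 passed (9.32%, against 12.5% of all genes), 2 higher and 9 lower, with a median of 0.07. All 4 called genes among 16 tested of tropomyosin and myosin were lower: Myl12a (-1.14 ± 0.15, adjusted p = 0.00129), Myl12b (-1.08 ± 0.18, adjusted p = 0.00351), Myl6 (-0.64 ± 0.11, adjusted p = 0.00485) and the tropomyosin Tpm3 (-0.62 ± 0.15, adjusted p = 0.0202). Arhgdib, a GDP dissociation inhibitor of small GTPases in blood cells, stood at 1688 ± 151 FPKM in Cxcl10-/- and 998 ± 219 in Cxcr3-/- (-0.78 ± 0.15, adjusted p = 0.00863). Its WT libraries, at 1655, 1364 and 1595 FPKM, overlapped those of Cxcl10-/-. Vav1 (-1.36 ± 0.29), the monomer-binding Twf1 (-1.04 ± 0.25), Capg (-0.82 ± 0.22) and Capzb (-0.75 ± 0.22) were lower, while Rhoh (1.13 ± 0.27) and the filament-capping Add3 (1.30 ± 0.32) were higher.

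Genes most like Actb over the 9 libraries included Noc2l (Pearson r = 0.992), Rpl23 (0.980), Hoxa10 (0.963) and Rps12 (0.955), out of 7543 genes that averaged 5 FPKM or more. Noc2l is a nucleolar protein, Hoxa10 a homeobox factor, and the others are ribosomal proteins. Noc2l stood at 23.0, 27.3 and 28.6 FPKM in WT, 46.7, 42.2 and 45.8 in Cxcl10-/-, and 45.6, 35.5 and 44.7 in Cxcr3-/-. As for Actb, its lowest knockout library was Cxcr3-/- replicate 2. The 9 points share the scaling of each library, and the values are a description of these libraries.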

How the data were processed

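One deposited table gave, for each of 22322 genes and 9 libraries, FPKM and counts computed by the authors. FPKM, per the file headers, scale fragments to transcript length and library size; the denominator used is not stated. The counts, per the file headers, were read here to be expected counts, since some are not whole, and were rounded for the count tests. RSEM, StringTie, HISAT2 and fastp are named, per the submitters' processing notes; which build or versions they ran with is not given in the sources used here. RNA from each mouse was amplified as cDNA with no molecular identifiers.

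Tests used log2(FPKM + 1), a scale that shrinks the change of low genes. The 10866 genes that averaged 1 FPKM or more were fitted with limma 3.58.1 (R 4.3.3), with 1 mean per genotype, a variance trend and Benjamini-Hochberg adjustment over all genes, threshold 0.05. edgeR 4.0.16 (quasi-likelihood) and DESeq2 1.42.0 ran on the counts. Adjusted p that DESeq2 left out stayed out. Other alternatives were a pseudocount of 0.1, no filter or 5 FPKM, other scalings, a loess correction for GC content and length (10856 genes), fits with only the libraries compared, no trend or a replicate block, and leaving out each library. Within-library ratios had exact permutation tests (SciPy 1.17.1). Of the fits, only limma for Cxcl10-/- against WT was first tried on simulated counts. These were drawn from WT means, without a shift in mitochondrial share or GC content.

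All members were named; of the pathway lists, genes past the threshold with the smallest adjusted p, SRF and its cofactors and the other Arp2/3 subunits; and the 5 genes most correlated with Actb, of which 1 is not reported here. Twf1, Wipf1, Pls3 and, for Cxcr3-/- against WT, Arhgdib, Capza2 and Myl12b were named after their values were seen. The members and lists were chosen with earlier results of these data known. Depth ran from 12098498 to 17904629 counts per library; the replicates are separate mice. Gene positions, GC content and coding sequences come from GENCODE M21 (GRCm38), promoters from RefSeq (GRCm38.p6).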

Additional observations from a re-analysis of the deposited data

How the results depend on the processing

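Each comparison was repeated under 22 alternatives. No member called in limma reversed. Arpc1b kept its call in 20 for Cxcl10-/- against WT and in 22 between the knockouts, Actb in 19, Coro1a in 12, Cfl1 in 11 and 17, Tmsb10 in 10 and 9, Tmsb4x in 8 and 15, and Pfn1 in 5. The causes were not tested. Nothing in the sources used here ties the replicate numbers to a litter or day. Deviations from the group means had correlations between -0.0857 and 0.0309 in 9 same-numbered pairs, which cannot exclude a shared litter or day. With the replicate block, the members called were 4, 0 and 5 and all genes called 810, 0 and 1118. The order is Cxcl10-/- against WT, Cxcr3-/- against WT and Cxcr3-/- against Cxcl10-/-.

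In Cxcl10-/- against WT, 6 members, 7 listed pathway genes and 1008 of all genes were called. With no filter these were 3 members and 588 of 20523 genes. Median-of-ratios scaling and leaving out mitochondrial genes gave 3 members each, of 808 and 899 genes. The GC and length correction gave 2 members, 3 listed genes and 616 genes, and with the block 1, 0 and 450. With no trend they were 1, 3 and 616. DESeq2 called 18 listed genes. Leaving out 1 library gave 2 to 6 members, 2 to 12 listed genes and 282 to 1192 genes. In Cxcr3-/- against WT, DESeq2 called 1 member, 3 listed genes and 68 genes, and leaving out 1 library gave 0, 0 and 0 to 1.

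Between the knockouts 5 of 10 members, 11 of 118 listed genes and 1359 of 10866 genes (12.5%) were called. With no filter there were 2 members and 819 of 20523 genes, and with median-of-ratios scaling 2 and 1239 of 10866. edgeR, leaving out mitochondrial genes and the GC and length correction gave 3 members each, of 1142, 1310 and 997 genes, and the last with the block 3, 4 and 796. In each of these except edgeR, the 3 included Actg1, which the limma fit reported above did not call. With only the 6 libraries compared there were 1, 5 and 618, and with no trend 1, 6 and 908. DESeq2 called 20 listed genes. Leaving out 1 library gave 2 to 4, 4 to 16 and 596 to 1532.

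The members' share was 0.811%, 1.03% and 0.855% of counts in WT, Cxcl10-/- and Cxcr3-/-, and 1.25%, 1.37% and 1.23% of FPKM without mitochondrial genes. Without 1 library the log2 Actg1 to Actb difference was -0.77 to -0.56 (Cxcl10-/- against WT), -0.37 to -0.21 (Cxcr3-/- against WT) and 0.26 to 0.50 (Cxcr3-/- against Cxcl10-/-), and that of Tmsb10 to Tmsb4x 0.22 to 0.37, 0.06 to 0.19 and -0.25 to -0.10.

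Signs turned only for differences that had not passed. In Cxcl10-/- against WT, Actg1 was at 0.02 without WT replicate 3 and at 0.04 and 0.03 without Cxcl10-/- replicates 1 and 3 (range over the fits without 1 library -0.09 to 0.04). Pfn1 was at -0.09 after the GC and length correction, with or without the block. Arpc2 was at -0.07 with median-of-ratios scaling, -0.18 without mitochondrial genes, -0.20 after quantile normalization, -0.03 without WT replicate 3 (range -0.03 to 0.14), -0.05 in edgeR and -0.06 in DESeq2. In Cxcr3-/- against WT, Cfl1 was at -0.01 with median-of-ratios scaling and without Cxcr3-/- replicate 2 (range -0.01 to 0.15), -0.04 in edgeR and -0.05 in DESeq2. Tmsb4x was at 0.18 after the GC and length correction, with or without the block, and 0.03 without Cxcr3-/- replicate 1 (range -0.13 to 0.03). Tmsb10 was at -0.03 with median-of-ratios scaling, -0.02 without WT replicate 2, -0.01 and -0.05 without Cxcr3-/- replicates 2 and 3 (range -0.05 to 0.22), and -0.01 in DESeq2. Between the knockouts, Actb was at 0.08 without mitochondrial genes, 0.09 after quantile normalization and 0.12 after the GC and length correction, with or without the block. Coro1a was at 0.01, 0.15 and 0.18 in the same settings.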

Other observations

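The muscle actins and contractile markers were near or at 0 in every library, which sets them apart from the cytoplasmic actins. Actc1 and Actg2 were listed at 0 in all 9 libraries. Acta1 reached 0.13 FPKM in 1 library, Cxcr3-/- replicate 3. Acta2, the actin of smooth muscle, reached 0.10 FPKM in that library and was listed at 0 in the 3 Cxcl10-/- libraries. Tagln reached 1.54 FPKM, also in Cxcr3-/- replicate 3, and was at most 0.17 FPKM in the Cxcl10-/- libraries. All 9 genes of the list were below the mean of 1 FPKM needed for a test.

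The other marker lists are given by their summed levels. Megakaryocyte and platelet markers summed to 289 to 390 FPKM in WT, 281 to 444 in Cxcl10-/- and 468 to 581 in Cxcr3-/-. Most of these sums was Pf4, at 247 to 340 FPKM in WT and 418 to 518 in Cxcr3-/-. Of the other genes listed, only Gp9 also lay above WT in Cxcr3-/- without overlap. In limma no gene of the list was called in either knockout against WT. Pf4 was called higher in Cxcr3-/- than in Cxcl10-/- (0.73 ± 0.19, limma, adjusted p = 0.0302). Monocyte and macrophage markers summed to 594 to 707 FPKM in WT, 456 to 495 in Cxcl10-/- and 234 to 425 in Cxcr3-/-. Most of these sums was Lyz2, at 543 to 661 FPKM in WT and 370.2 to 441 in Cxcl10-/-, whereas the 1 gene of the list called between these groups, Vcam1, was higher in Cxcl10-/- (19.8 to 35.9 FPKM against 0.69 to 3.77). Neutrophil markers ranged from 14.5 to 179.8 FPKM and erythroid markers from 65.8 to 382 FPKM among the Cxcl10-/- libraries, against 11.1 to 22.8 and 47.5 to 72.2 FPKM in WT. The lowest Cxcl10-/- sum of each list lay within the WT range. The highest, and that of the stromal list below, came from 1 library, replicate 2. S100a8 was at 43.6, 148 and 13.6 FPKM and Hba-a1 at 27.6, 133 and 49.9 in Cxcl10-/- replicates 1, 2 and 3. Lymphoid markers summed to 393 to 453 FPKM in WT, 232 to 339 in Cxcl10-/- and 214 to 458 in Cxcr3-/-. Nearly all of these sums was Nkg7 and Cd79b, the 2 genes of the list that were tested. Ebf1, Cd3g, Cd3d and Il7r were listed at 0 in every WT library. Cd79b was at 70.2, 48.5 and 55.4 FPKM in WT and at 39.3, 112 and 132 in Cxcl10-/-, and these overlapped. In Cxcl10-/- against WT, the 1 erythroid gene called, Hba-a1, was higher (2.77 ± 0.56, limma, adjusted p = 0.0115). The 1 lymphoid gene called, Nkg7, was lower (-0.87 ± 0.22, limma, adjusted p = 0.034). Stromal, pericyte and smooth muscle markers summed to 0.81 to 3.38 FPKM in WT, 14.1 to 157 in Cxcl10-/- and 1.39 to 3.64 in Cxcr3-/-. Most of the Cxcl10-/- sums was Cxcl12, at 14.1, 118.9 and 10.8 FPKM against 0.11, 0.01 and 1.24 in WT. It was the 1 gene of this list called between these groups (4.35 ± 0.73, limma, adjusted p = 0.00478). Rgs5, Acta2 and Myh11 were listed at 0 in every Cxcl10-/- library. Genes that the sort should exclude summed to 417 to 459.6 FPKM in WT, 481 to 527 in Cxcl10-/- and 289.6 to 466 in Cxcr3-/-, nearly all of it Ptprcap, a gene of white blood cells in general. Whether RNA of other cell types was present, and its part in the members' differences, was not tested.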
